A study of Oryctolagus cuniculus with 4 samples.

Results

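The cells described here were picked by a marker rule for mast cells from single-cell RNA sequencing of rabbit bladder mucosa. A cell was selected when at least 2 of the 4 genes KIT, CPA3, MS4A2 and HDC had a unique molecular identifier (UMI, the tag that lets each captured RNA molecule be counted once) and when DCN and LUM, collagen-binding proteoglycan genes of fibroblasts, made up less than 0.5% of its UMIs. The rule found 95 cells among 21945 kept cells (0.433%). The study compared bladders on day 10 after a focal resection of the mucosa (Injury_1 and Injury_2) with bladders under homeostasis (Normal_1 and Normal_2), in adult New Zealand rabbits. There were 2 libraries per condition, which the study calls biological replicates. All 4 samples were collagenase digests of a piece of mucosa, run on the droplet platform of 10x Genomics, and the submitters list the tissue as urothelium although stromal and immune cells were captured too. No sham operation is given for the normal bladders, so the surgery and the loss of mucosa cannot be told apart.

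Mast cells are granule-bearing immune cells of connective tissue that mature locally under stem cell factor, the ligand of the receptor tyrosine kinase KIT. They bind IgE through a high-affinity receptor built of an alpha chain (FCER1A), a beta chain (MS4A2) and a signalling gamma chain (FCER1G), and cross-linking of that receptor releases histamine, proteases and lipid mediators. Histamine is made by histidine decarboxylase (HDC) and loaded into granules by the vesicular monoamine transporter SLC18A2, while CPA3 is a granule carboxypeptidase. In the bladder, mast cells lie in the lamina propria and the detrusor and are known for their part in cystitis.

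Cells under 500 UMIs, under 200 genes or with more than 15% of UMIs from mitochondrial genes were dropped. The libraries then held 4308 to 6081 cells with median UMI counts of 4813.5 to 7186. Any pair of libraries shared 8 to 13 cell barcodes, and 1 selected cell carried a shared barcode. The selected cells were shallower than the other cells, with medians of 2911.5 and 4087 UMIs in Injury_1 and Injury_2 and of 3200 and 2132 UMIs in Normal_1 and Normal_2. Summed over the selected cells, the libraries gave 183273, 192378, 21593 and 70914 UMIs in the same order, so that 1 UMI was worth 5.46, 5.20, 46.3 and 14.1 CPM (UMIs of a gene scaled to a fixed library total). Levels in Normal_1 therefore rested on 5 cells and were the coarsest. In Normal_2, 2 selected cells with few mast cell UMIs held 64.5% of the UMIs, which lowers the level there of genes found mainly in the other 10 cells. The main genes are therefore also given for Normal_2 without these 2 very large cells.

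Of the rule genes, CPA3 had no UMI in any kept cell of any library, so the choice rested on KIT, MS4A2 and HDC. MS4A2 was detected in 76 of the 95 cells, KIT in 71 and HDC in 65. All 3 genes were found together in 22 cells, and 73 cells had 2 of them. The UMIs of HDC were the most concentrated, with 74.1% of its 1115 UMIs in kept cells falling in the selected cells, against 42.7% for MS4A2 and 27.7% for KIT. A single UMI was all there was in 40 of the 76 cells with MS4A2, in 32 of the 71 with KIT and in 20 of the 65 with HDC. In the 8033 cells rich in DCN and LUM, which served as a background for stray RNA, KIT was detected in 0.585%, HDC in 0.485% and MS4A2 in 0.112%, although those cells were deeper (median 5010 to 8610 UMIs). These values chose the cells and are given as a description. PTPRC, the pan-leukocyte phosphatase CD45, took no part in the choice and was detected in 70 of the 95 cells (73.7%).

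Around the limits of the rule, the largest share of DCN and LUM in a selected cell was 0.199% and 0.246% in the injured and 0 and 0.159% in the normal libraries. The 6 cells that failed only on this limit had 1.47% to 4.16%, so no cell stood near it. By contrast, 879 kept cells had exactly 1 rule gene. KIT alone was found in 576 cells, of which 198 had PTPRC and 83 had at least 2 epithelial markers. MS4A2 alone was found in 152 cells, 135 of them with PTPRC, and HDC alone in 151 cells, 22 of them with PTPRC.

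The selected cells made up a larger share of the injured libraries. There were 38 among 6081 cells in Injury_1 (0.625%, 95% Wilson interval 0.456 to 0.857), 40 among 5529 in Injury_2 (0.723%, 0.532 to 0.984), 5 among 4308 in Normal_1 (0.116%, 0.0496 to 0.271) and 12 among 6027 in Normal_2 (0.199%, 0.114 to 0.348). Both injured samples lay above both normal ones, and the intervals, which cover counting error only, did not overlap between conditions. The mean share was 0.674% ± 0.0697 (SD, n = 2) after injury and 0.158% ± 0.0587 (SD, n = 2) in normal mucosa, a difference of 0.517 percentage points and a ratio of 4.28. The two-sided exact permutation test over the samples gave p = 0.333, the smallest value that 2 samples against 2 allow.

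Counted against leukocytes, the selected cells did not differ in that way. As a share of the cells with PTPRC or in the selection, they were 2.72% in Injury_1 (Wilson interval 1.99 to 3.71), 4.22% in Injury_2 (3.11 to 5.69), 2.19% in Normal_1 (0.940 to 5.03) and 4.86% in Normal_2 (2.80 to 8.30). The conditions overlapped, with the normal samples at both ends of the range, and the difference turned to −0.0578 points (exact permutation p = 1.0). The other cells with PTPRC and less than 0.5% of DCN and LUM, called the other PTPRC-detected cells from here on, numbered 1272 and 861 in the injured libraries and 212 and 211 in the normal ones. The larger share of kept cells thus stood beside a larger number of other PTPRC-detected cells. Stricter settings, which kept fewer cells in both conditions, moved the difference in share of kept cells by more than 1.5 times. It was 0.116 points (ratio 3.68) with all 3 detectable rule genes required. Without the 69 cells that carried 2 markers of another cell type it was 0.112 points (ratio 2.88). It was 0.194 points (ratio 5.25) when cells were thinned to 2000 UMIs and shallower cells were left out. That setting left out 16 and 12 selected cells of Injury_1 and Injury_2 and 1 and 6 of Normal_1 and Normal_2. The value thus joins a depth cut with the thinning.

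**Figure D1:**
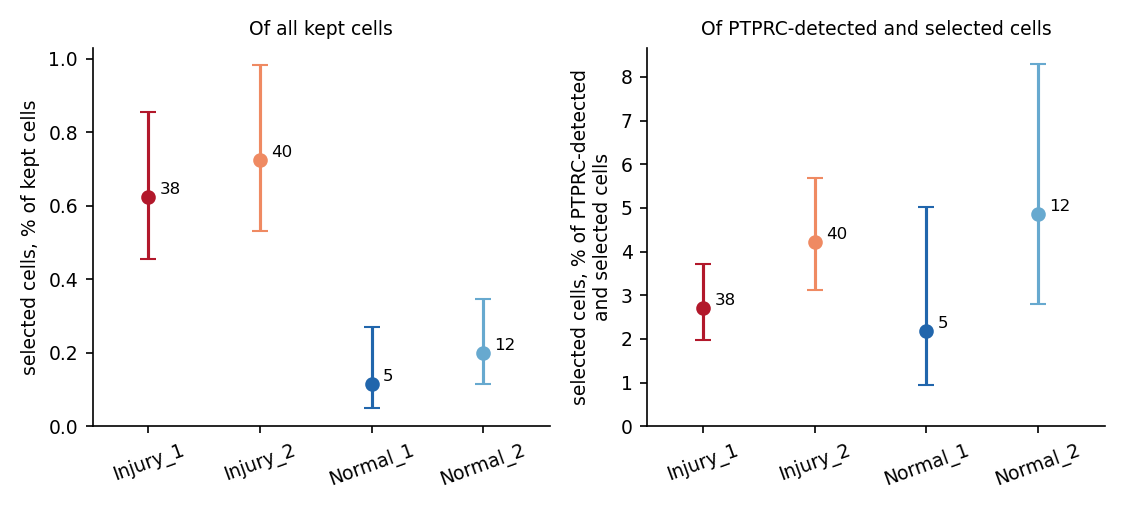
Selected cells as a percentage of all kept cells (left) and of the cells with PTPRC or in the selection (right), by sample, with 95% Wilson intervals as bars and the number of selected cells beside each point. On the left both injured samples (0.625% and 0.723%) lie above both normal ones (0.116% and 0.199%), and on the right the conditions overlap.

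The 95 cells were not of 1 kind. Split by which rule genes were detected, which is a complete partition made after the values had been seen, they formed 4 sets with different leading genes. The set with KIT, MS4A2 and HDC held 22 cells, the set with KIT and HDC held 19, the set with KIT and MS4A2 held 30 and the set with MS4A2 and HDC held 24. Their depths differed, with medians of 4518.5, 2833, 7330.5 and 1110.5 UMIs per cell. The set with KIT and MS4A2 was the deepest and had the weakest marker signal, since 14 of its 30 cells had just 1 UMI of each gene. In the set with KIT, MS4A2 and HDC the median sum of marker UMIs was 21.5, and in the set with KIT and MS4A2 it was 3.

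**Figure D2:**
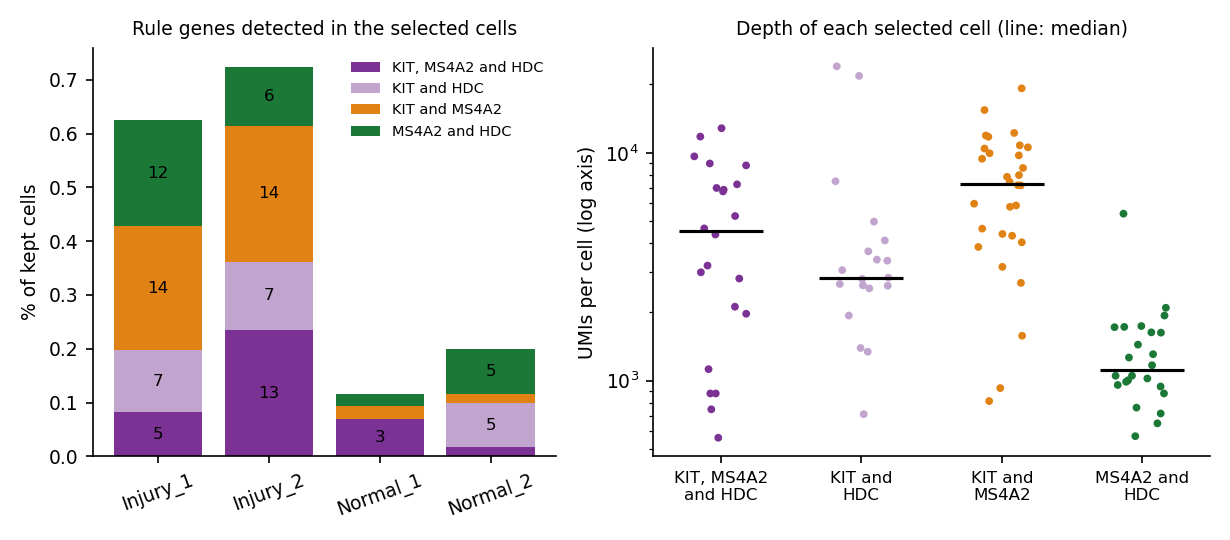
Left, selected cells as a percentage of kept cells by sample, stacked by the rule genes detected, with counts of 3 or more cells printed in the bars. Right, UMIs per selected cell on a log axis, 1 point per cell, with the median as a line. The cells with KIT and MS4A2 were the deepest (median 7330.5 UMIs) and those with MS4A2 and HDC the shallowest (median 1110.5 UMIs).

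Cells with both KIT and HDC numbered 41, with 12 and 20 in the injured and 3 and 6 in the normal libraries. They carried the gene with the highest ratio of the selected cells over the other PTPRC-detected cells, ENSOCUG00000029207, which has no symbol in the files and was singled out after its values had been seen. In the selected cells its level was 4682 CPM in Injury_1 and 12793 CPM in Injury_2, and 6993 CPM in Normal_1 and 1565 CPM in Normal_2, while the other PTPRC-detected cells had 4.41, 0.888, 0 and 0 CPM. Without the 2 very large cells, Normal_2 had 4404 CPM of ENSOCUG00000029207. Every sample showed this separation, but in Normal_2 it rested on 3 cells. There the log2 ratio over the other PTPRC-detected cells was 7.30, and 0 with a mitochondrial limit of 10%. It was also 0 there without cells with 2 markers of another cell type, and with all 3 detectable rule genes required. Of the 3774 UMIs of ENSOCUG00000029207 in kept cells, 3581 (94.9%) lay in the selected cells. Within those it was found in 29 cells, each with at least 20 UMIs. The largest value was 603 UMIs in 1 cell. Of these 29 cells, 28 had both KIT and HDC, and all 29 had FCER1A. Outside the selection it was detected in 43 kept cells, 38 of them with 1 UMI. In the set with KIT, MS4A2 and HDC it reached 24306 CPM, and in the set with KIT and HDC 8318 CPM. Without Injury_2 the first was 14889 CPM, and without Injury_1 or Normal_2 the second was 4735 or 19515 CPM. In the set with KIT and MS4A2 it was carried by 1 cell of Normal_2, and in the set with MS4A2 and HDC it had no UMI.

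FCER1A, the IgE-binding chain of the receptor, was found in all 29 cells with ENSOCUG00000029207 and in 26 of the 66 other selected cells. Its level in the selected cells was 726 and 1507 CPM in Injury_1 and Injury_2 and 1297 and 437 CPM in Normal_1 and Normal_2, against 11.5, 9.77, 17.7 and 29.0 CPM in the other PTPRC-detected cells. The selected cells were above the others in each library, and the conditions overlapped. Without the 2 very large cells, the level in Normal_2 was 1230 CPM. By set, FCER1A was found in 20 of 22 cells with KIT, MS4A2 and HDC (3021 CPM), 15 of 19 with KIT and HDC (833 CPM), 13 of 24 with MS4A2 and HDC (1278 CPM) and 7 of 30 with KIT and MS4A2 (93.0 CPM). Without Normal_2 the level of FCER1A in the set with KIT and HDC was 1774 CPM, so its order against the set with MS4A2 and HDC turns on that library. The gamma chain FCER1G, which other leukocytes use as well, was less particular, at 412, 226, 535 and 133 CPM in the same order of sets.

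Within the selection, some genes known from mast cells were found mostly or wholly in the cells with KIT and HDC, while others were not. SRGN, the proteoglycan core of the granules, was at 2268 CPM in the set with KIT, MS4A2 and HDC, 894 CPM in that with KIT and HDC, 2705 CPM in that with MS4A2 and HDC and 177 CPM in that with KIT and MS4A2. SLC18A2 was likewise found with and without KIT, at 206, 123, 268 and 17.7 CPM in the same order of sets. CMA1, the granule chymase, had 25 of its 27 UMIs in the selected cells and was found in 8 cells with KIT, MS4A2 and HDC and 5 with KIT and HDC. GATA1, a transcription factor of the mast cell, erythroid and megakaryocyte lineages, had 23 of its 26 UMIs in the selected cells, in 8 and 4 cells of the same sets. Both genes lie below the 100 CPM used to choose named genes and were picked after their values had been seen. IL1RL1, the receptor through which the alarmin interleukin-33 acts, was found in 15 of the 22 cells with KIT, MS4A2 and HDC (1013 CPM) and 11 of the 19 with KIT and HDC (257 CPM). It was not particular to the selection, which held 2.48% of its 6138 UMIs. SCIN, an actin-severing protein of secretory cells, had 1022 and 607 CPM in these sets and 4.43 and 0 CPM in the others. The selection held 5.47% of the 3183 UMIs of SCIN. Over all selected cells its mean level was 455 CPM in the injured and 23.2 CPM in the normal samples. In the set with KIT, MS4A2 and HDC, leaving out Injury_2 gave 441 CPM of IL1RL1 and 415 CPM of SCIN. KIF16B, a kinesin of endosomes, had 565 and 298 CPM against 4.43 and 0 CPM. The set with KIT and HDC holds the very large cells of Normal_2, which lower its levels. Leaving out Normal_2 gave 2031 CPM of SRGN and 309 CPM of SLC18A2 there. It also gave 540 CPM of IL1RL1, 1517 CPM of SCIN and 746 CPM of KIF16B. For SLC18A2, SCIN and KIF16B the order against the set with KIT, MS4A2 and HDC thus turns on that library. HPGDS, the hematopoietic prostaglandin D synthase, was at 296 CPM in the cells with KIT, MS4A2 and HDC and at 4.43 to 59.5 CPM in the other sets. HPGDS too lies below the 100 CPM used to choose named genes, with means of 89.8 CPM in the injured and 81.6 CPM in the normal samples.

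The set with KIT and HDC had a second component. Its 8 genes with the highest ratio over the other sets began with AREG (a ligand of the EGF receptor), HSPB1 (a small heat shock protein) and GSTA5 (a glutathione transferase). AREG had 3568 CPM there and 26.6 to 119 CPM in the other sets. In Normal_2 the level of AREG over all selected cells was 4823 CPM, and it was 119 CPM without the 2 cells over 20000 UMIs. Those 2 cells had 21755 and 23953 UMIs, 79 and 80 UMIs of the epithelial list (EPCAM, KRT15, KRT18, KRT7, KRT5, CDH1 and UPK3B), no PTPRC, 1 UMI of HDC each, and 1 and 2 UMIs of KIT. HSPB1 moved the same way, from 4259 to 278 CPM. KRT18 went from 776 CPM to 0. In the set with KIT and HDC, leaving out Normal_2 gave 154 CPM of AREG, 257 CPM of HSPB1 and 129 CPM of GSTA5, so the leading genes of that set came from this library.

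The 30 cells with KIT and MS4A2 but no HDC went against the mast cell label. They were led by CD74 (the invariant chain of MHC class II), HLA-DRA and HLA-DMA (MHC class II subunits), AIF1 (an actin-binding protein of macrophages) and ARG1 (arginase). CD74 was at 3230 CPM in this set and at 10.3 to 59.5 CPM in the other sets. HLA-DRA was at 6366 CPM against 9.0 to 357 CPM. AIF1 was at 1302 CPM against 0 to 8.97 CPM, and HLA-DMA and ARG1, at 868 and 576 CPM, had no UMI in any other set. The study used CD74, HLA-DRA, AIF1 and ARG1 to annotate macrophages. At least 2 of these 4 genes were found in 22 of the 30 cells (73.3%), in 1 of the 22 cells with KIT, MS4A2 and HDC, in none of the other sets and in 53.2% of the other PTPRC-detected cells. The classical macrophage genes C1QA, C1QB, C1QC and CD163 were at 0 in the set. The summed macrophage list (these with CD68, MRC1 and CSF1R) was at 244 CPM there and at 2321 CPM in the other PTPRC-detected cells. PTPRC was detected in 27 of the 30 cells, FCER1A in 7, and CMA1 and GATA1 in none. CXCL8 and IL1B, inflammatory mediators of myeloid cells, had 4249 and 11877 CPM. Both rested on Injury_2. IL1B had 25509 CPM there and 3404 CPM in Injury_1, and CXCL8 had 10228 CPM there, with 903 UMIs in 4 cells, and 458 CPM in Injury_1. Without Injury_2 the set had 3121 CPM of IL1B, 407 CPM of CXCL8 and 160 CPM of ARG1.

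Among the 4 sets, the 24 cells with MS4A2 and HDC but no KIT were marked by SERPINB2, an inhibitor of plasminogen activators. It was found in all 24 cells at 13616 CPM, against 310 to 574 CPM in the other sets. SERPINB2 was not particular to the selection, which held 9.15% of its 7042 UMIs. Of the 163 kept cells with at least 5 UMIs of SERPINB2, 28 were selected cells. By sample, its level in this set was 9529 CPM in 12 cells of Injury_1, 13631 CPM in 6 cells of Injury_2, 28517 CPM in 1 cell of Normal_1 and 20526 CPM in 5 cells of Normal_2. It was high in this set of every library. STAP1, a signalling adaptor, was found in 19 of the 24 cells (3359 CPM against 191 to 484 CPM). TMEM154, a membrane protein, was found in 20 cells (2140 CPM against 26.6 to 251 CPM). GBP1, an interferon-inducible GTPase, was found in 10 cells (2616 CPM against 161 to 191 CPM), but 80 of its 88 UMIs in the set came from Injury_1, and it had 437 CPM without that library. KRT23, a keratin, was found in 16 cells (951 CPM against 17.7 to 123 CPM). HDC was at 5113 CPM in this set. By sample that was 10116 CPM in Injury_1, but 858, 1901 and 886 CPM in the others, so that the high value came from 1 library. Of SLC18A2 these cells had 9 UMIs, 7 of them in Injury_1, and without that library the level was 109 CPM. They had no UMI of CMA1, GATA1, SCIN, KIF16B or ENSOCUG00000029207. In this set 3 UMIs equal 89.2 CPM. In the sets with KIT, MS4A2 and HDC and with KIT and HDC, CMA1 had 134 and 103 CPM and GATA1 161 and 51.4 CPM. The zeros of CMA1 and GATA1 here therefore lie near the limit set by depth. PTPRC was detected in 13 of the 24 cells. Of the list for basophils and eosinophils, PRG3 and EPX were the genes with a symbol in the files, and both were at 0 in all selected cells and in the other PTPRC-detected cells. In all kept cells PRG3 had 0 UMIs and EPX had 1, so the list could not show whether either cell type was present.

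Over all 95 cells, ENSOCUG00000029207 was detected in 29, CD74 with at least 5 UMIs in 21 and SERPINB2 in 35. The first and the second were never found in the same cell, nor were the second and the third, and the first and the third met in 1 cell of Injury_2. At least 1 of them was found in 84 cells and none in 11. SERPINB2 outside the set with MS4A2 and HDC was found in 11 cells, among them 5 with KIT, MS4A2 and HDC. These 3 genes were picked after the sets had been compared, and their separation is a description.

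**Figure D3:**
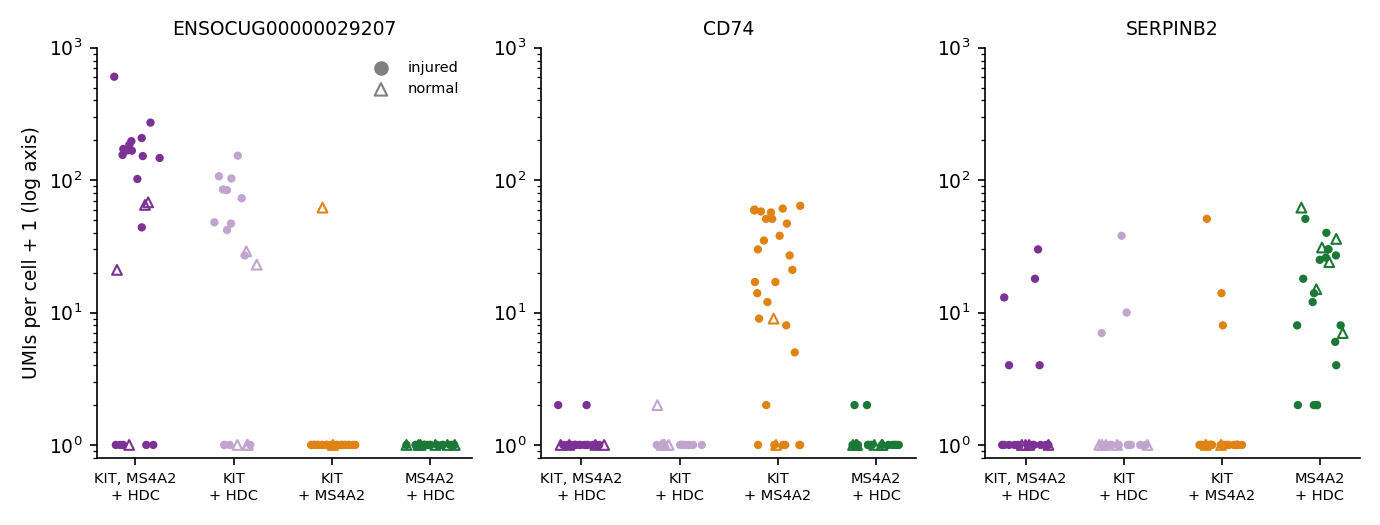
UMIs per selected cell plus 1, on a log axis, of ENSOCUG00000029207, CD74 and SERPINB2, by the rule genes detected. Filled circles are cells of injured and open triangles cells of normal samples. ENSOCUG00000029207 lies in the cells with KIT and HDC but for 1 cell, CD74 above 1 UMI in cells with KIT and MS4A2, and SERPINB2 in all 24 cells with MS4A2 and HDC.

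**Figure D4:**
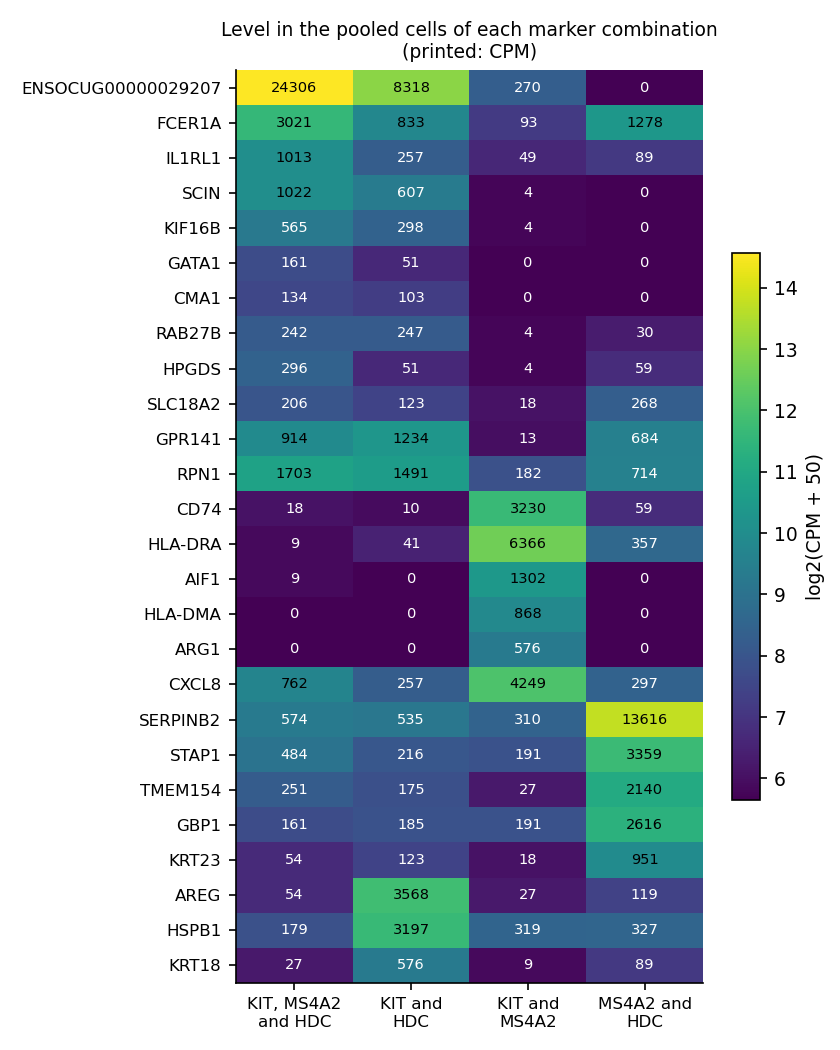
Levels of 26 genes in the summed UMIs of each set, with the CPM printed in each field and the colour giving log2(CPM + 50). The upper genes, down to RPN1, are high in the columns with KIT and HDC, but HPGDS mainly in that with KIT, MS4A2 and HDC. FCER1A, SLC18A2, GPR141 and RPN1 are high in the column with MS4A2 and HDC too. The middle genes from CD74 to CXCL8 are high in the column with KIT and MS4A2, and SERPINB2 to KRT23 in the column with MS4A2 and HDC. AREG, HSPB1 and KRT18 are high in the column with KIT and HDC, which holds the 2 very large cells of Normal_2.

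Each set was then counted by sample. Cells with KIT and MS4A2 were 0.230% and 0.253% of kept cells after injury and 0.0232% and 0.0166% in normal mucosa, with a ratio of means of 12.1, the largest of the 4 sets. The cells with KIT, MS4A2 and HDC were 0.0822% and 0.235% after injury and 0.0696% and 0.0166% in normal mucosa, and most of that difference came from Injury_2. Cells with KIT and HDC were 0.115% and 0.127% against 0 and 0.0830%, where the 0 of 4308 cells in Normal_1 allow a share of up to 0.0696%. Cells with MS4A2 and HDC were 0.197% and 0.109% against 0.0232% and 0.0830%. Each set gave an exact permutation p of 0.333, the smallest possible, so the sets could not be ranked by test.

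Among genes with a symbol and at least 100 CPM in each sample, ribosomal and mitochondrial ones left out, the 15 with the highest mean ratio of the selected cells over the other PTPRC-detected cells of the same library included HDC, FCER1A, MS4A2, GPR141, KIT, ABCC4, STAP1, RPN1, ANKRD50, ADORA2B, TIMP3, SAMSN1, ACSL4 and SYNE1. The rule chose on 3 of them. GPR141, an orphan receptor of blood cells, had 671, 520, 232 and 282 CPM in Injury_1, Injury_2, Normal_1 and Normal_2 and 11.9 to 26.1 CPM in the other cells. It was high in all sets but that with KIT and MS4A2, where 2 of 30 cells had it (13.3 CPM). RPN1, a subunit of the oligosaccharyltransferase, had 557, 1128, 2177 and 479 CPM against 109 to 127 CPM. ACSL4, which activates arachidonic acid, was found in 89 of the 95 cells at 1451, 2355, 1343 and 832 CPM, against 275 to 373 CPM. ABCC4, an exporter of cyclic nucleotides and eicosanoids, had 207, 447, 880 and 268 CPM against 24.5 to 51.3 CPM. For all 4 genes each library showed the same direction. In the cells rich in DCN and LUM, ACSL4 was detected in 72.2%, RPN1 in 59.5%, ABCC4 in 17.6% and GPR141 in 0.187%. TIMP3 was detected in 92.7% of them. ACSL4, RPN1 and TIMP3 were thus not particular to the selection. The injured and normal values of RPN1 and ABCC4 overlapped, and so did those of GPR141 and ACSL4 once the very large cells were left out, at 793 and 1904 CPM in Normal_2.

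Genes of mast cell function were then counted from lists of 200 genes, of which 120 have a symbol in the files. TPSAB1, TPSB2 and CD63 are among those without one. Over all 1044 genes with a symbol and a mean of at least 100 CPM in either condition, ribosomal and mitochondrial genes left out, 280 (26.8%) were higher in the selected cells than in the other PTPRC-detected cells in each of the 4 samples and 44 (4.21%) were lower in each, with a median log2 ratio of 0.27 (pseudocount 10 CPM). Without the 2 very large cells 270 of these genes were higher and 84 lower. Since the choice of cells used this contrast, no test was made. Of the granule genes, 8 of 18 were in the files and 3 reached the level, and SRGN, SLC18A2 and RAB27B were all higher in each sample (median log2 ratio 3.28). SLC18A2 had 23, 17, 5 and 3 UMIs in the selected cells of the 4 libraries, 52.2% of its UMIs in all kept cells. SRGN had 671, 1580, 417 and 494 CPM against 246 to 363 CPM, and 1389 CPM in Normal_2 without the very large cells. RAB27B, a GTPase of granule docking, had 76.4, 130, 139 and 155 CPM against 0.178 to 4.67 CPM. CTSG, a granule protease, had no UMI in any kept cell.

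Of the genes of IgE receptor signalling, 13 of 18 were in the files and 4 reached the level. FCER1A and the adaptor LAT were higher in each sample, while FCER1G and the kinase LYN were higher in all but Normal_2 (list median log2 ratio 0.96). Without the very large cells Normal_2 had 238 CPM of FCER1G and 79.3 CPM of LYN, and both were then higher in each sample too. These values rested on 6 UMIs of FCER1G and 2 UMIs of LYN, the latter fewer than 3 UMIs. LAT had 256, 405, 324 and 282 CPM against 68.1 to 167 CPM, and it was also detected in 28.3% of the cells rich in DCN and LUM. LYN had 153, 135, 139 and 28.2 CPM. SYK, the kinase recruited to the receptor, had no UMI in the selected cells, where the limit set by 3 UMIs is 15.6 to 139 CPM by library. The other PTPRC-detected cells had SYK in 2.97%, at a mean of 6.40 CPM over the samples. That lies below the limit of every library, so the zero shows no lack of SYK against them.

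In the remaining lists few genes reached the level. Among KIT signalling and survival genes, PIK3R1 and MCL1 did and neither was higher in each sample (median −0.44). Of the lineage transcription factors, LMO4 was higher in each sample, though it had no UMI in Normal_2 outside the very large cells, and ZEB2 was not. The eicosanoid genes PLA2G4A and PTGS2 did not differ in 1 direction, ADORA2B was the receptor gene that was higher in each sample, and IL1RL1 was not. EXT1 of glycosaminoglycan synthesis was higher in each sample, as was RGS1 among the 5 adhesion and migration genes. NR4A2 and NR4A3 were higher in each sample among 9 immediate early and heat shock genes, and the replication factor PCNA was lower. No interferon response gene reached the level. RGS1, a brake on G protein signalling, had 1539, 2043, 3149 and 550 CPM against 385 to 795 CPM, and 1547 CPM in Normal_2 without the very large cells. Leaving those cells out also changed the call of CD44, which became higher in each sample, and of ATF3, which became lower.

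The cytokine list went the other way, with a median log2 ratio of −3.33. Of its 24 genes 14 were in the files and 5 reached the level, and IL1B, CXCL8 and CCL2 were lower in the selected cells in each sample. IL1B had 2701, 12657, 787 and 479 CPM against 22405 to 28969 CPM in the other PTPRC-detected cells, and 1349 CPM in Normal_2 without the very large cells. CXCL8 had 431, 5146, 0 and 141 CPM against 6707 to 21031 CPM. Injury_2 was highest for both. In the set with KIT, MS4A2 and HDC the levels were 1399 CPM of IL1B and 762 CPM of CXCL8, and 571 and 25.9 CPM without Injury_2.

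**Figure D5:**
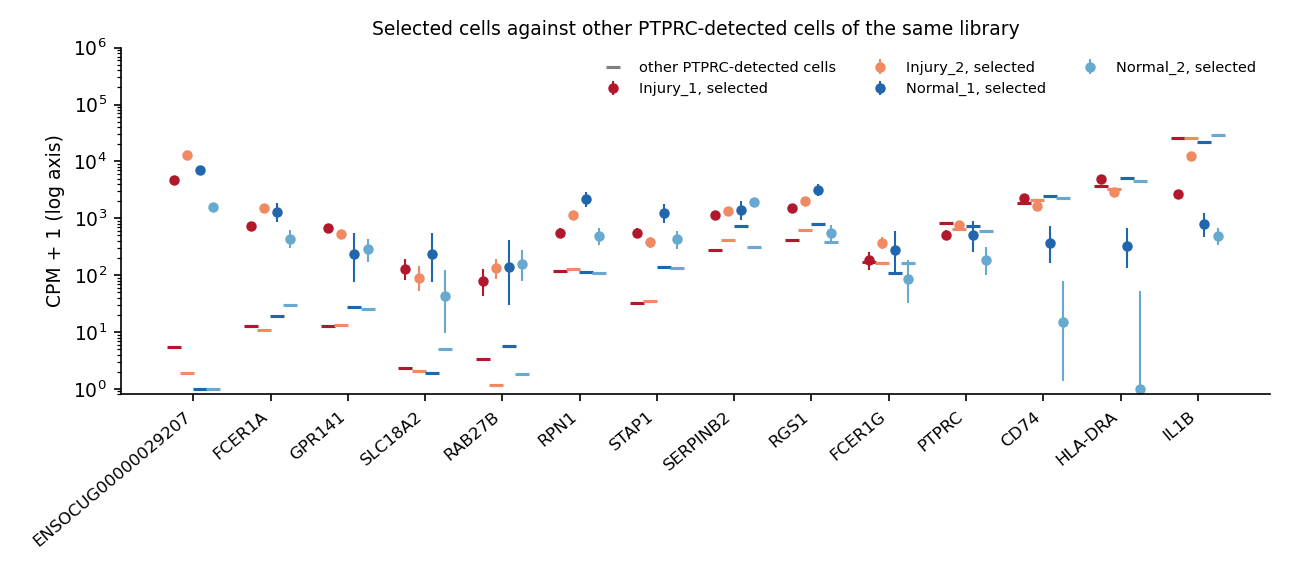
CPM plus 1 on a log axis in the selected cells of each sample (points, with exact 95% Poisson intervals as bars) and in the other PTPRC-detected cells of the same library (dashes in the same colour). From ENSOCUG00000029207 to STAP1 the points lie above the dashes in each library, CD74 and HLA-DRA lie near them in the injured samples and below in the normal samples, and IL1B lies below in all 4.

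Between injured and normal samples, levels in the selected cells are given without a test across genes, because Normal_1 had 5 selected cells and 10 were required in each sample. Of the 1044 genes, 244 (23.4%) had both injured samples above both normal ones and 171 (16.4%) had both below. Within the lists, 0 to 2 genes per list separated in either direction, and these counts are too small to set against that background. The rule chose the cells on HDC, KIT and MS4A2, so the levels of these genes are given as a description. HDC had 2663 and 1554 CPM after injury and 648 and 353 CPM in normal mucosa, with 912 CPM in Normal_2 without the very large cells. In Injury_1, 1 cell held 199 of the 488 UMIs of HDC. KIT had 660 and 858 CPM against 556 and 197 CPM, and MS4A2, at 529 and 546 CPM against 602 and 197 CPM, overlapped. Without the very large cells Normal_2 had 436 CPM of KIT, below both injured samples, and 555 CPM of MS4A2, above both. CD74 had 2248 and 1627 CPM against 370 and 14.1 CPM, and HLA-DRA 4845 and 2906 CPM against 324 and 0 CPM. Beside these stands the number of cells with KIT and MS4A2, 14 and 14 after injury and 1 and 1 in normal mucosa. Of the UMIs in the selected cells, 729 of 734 of CD74 and 1437 of 1454 of HLA-DRA lay in that set. AIF1 was at 682 and 852 CPM against 278 and 0 CPM. ADORA2B, an adenosine receptor, went the other way, at 213 and 301 CPM against 880 and 705 CPM, with 1587 CPM in Normal_2 without the very large cells. ENSOCUG00000029207, FCER1A, SLC18A2 and RPN1 overlapped between conditions.

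Markers of other cell types were common in the selected cells for the fibroblast list and low for most other lists. At least 2 genes of the fibroblast list (DCN, LUM, COL1A1, COL1A2, COL3A1 and FBN1) were found in 65 of the 95 cells. By sample that was 68.4%, 75.0%, 0 and 75.0%, and in the other PTPRC-detected cells 69.2%, 70.6%, 13.2% and 58.8%. The selected cells thus carried fibroblast UMIs about as often as other leukocytes, with a median of 3 UMIs in the injured libraries. The list summed to 977, 561, 46.3 and 1481 CPM against 664, 748, 216 and 1045 CPM. In Normal_2 the 2 very large cells held 80 UMIs of this list. The list of T and NK genes was at 0 to 270 CPM against 291 to 470 CPM in the other PTPRC-detected cells, B and plasma cell genes at 0 to 15.6 CPM against 145 to 175 CPM, and neutrophil genes at 0 to 38.2 CPM against 400 to 1209 CPM. Smooth muscle and pericyte genes reached 1001 CPM in Normal_2, where MYH11, ACTG2, DES and RGS5 were all at 0 without the 2 very large cells. Endothelial genes lay at 232 to 369 CPM against 291 to 586 CPM, and glial genes were at 0 in the selected cells. The epithelial list was at 131 to 278 CPM in the first 3 libraries and at 2242 CPM in Normal_2, where the 2 very large cells held 159 of its UMIs.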

How the data were processed

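The authors mapped the reads and deposited, for each sample, UMI counts per gene and barcode from Cell Ranger 6.0.1 (per the file headers), unnormalized. The genome release is not given in the sources used here. The 18475 genes include 9771 with a symbol. Cells were filtered on UMIs, genes and 13 mitochondrial genes, no doublet caller was run, and no sequence is printed. The cells, the lists and the contrasts were chosen with earlier results of these data known. Counts were summed per sample, scaled to CPM and compared as log2(CPM + 10), or log2(CPM + 50) between sets. Named genes were those of the lists at 100 CPM in either condition, the 15 leading genes and, added later, 8 per set found in at least 1 in 3 of its cells, and 1 of the leading genes is not reported here. The planned count tests across genes needed 10 selected cells in each sample and were not run, since Normal_1 had 5. Shares carry 95% Wilson intervals and levels exact Poisson intervals, which cover counting error only. Single values were compared by two-sided exact permutation over samples. The ratio calculation was checked on simulated data. Python 3.11.15, numpy 2.4.6, scipy 1.17.1, pandas 2.3.3 and matplotlib 3.10.9 were used.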

Additional observations from a re-analysis of the deposited data

How the results depend on the processing

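The difference in share of kept cells (0.517 points) kept its direction under all alternatives run but 1, between 0.0794 points (cells with KIT and HDC alone) and 0.573 points (no mitochondrial limit). It turned to −0.0578 points as a share of the PTPRC-detected and selected cells. Leaving out each sample in turn gave 0.467 to 0.566 points. Pairing by replicate number, as a block, left the mean at 0.517 points, with 0.509 and 0.524 points in the pairs and a sign-flip p of 0.5, the smallest possible, and the labels do not say that a number marks a shared animal or day. No p could pass 0.05 in this design, so the settings say nothing of stability. Of 45 alternatives for 5 genes, 37 moved the log2 ratio of the selected cells over other PTPRC-detected cells by less than 1 SD and 7 by more. SERPINB2 turned from 1.81 to −2.34 when all 3 detectable rule genes were required, which leaves out the cells with MS4A2 and HDC. The alternatives for the gene tests were not run, as the tests were not. The settings without a mitochondrial limit, without cells over 20000 UMIs, for single sets and for sets without each library were chosen after seeing the data. Without the cells over 20000 UMIs, 84 in place of 44 genes were lower than in other PTPRC-detected cells in each sample, and 270 in place of 280 higher. With 17 selected cells in the normal samples, small levels there are limited by depth.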

Other observations

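KITLG, the stem cell factor that binds KIT, was highest in cells with at least 2 endothelial markers, at 84.0 and 77.3 CPM in the injured samples and 96.3 and 92.2 CPM in the normal samples. Cells rich in DCN and LUM had 17.6, 20.1, 15.2 and 13.3 CPM in Injury_1, Injury_2, Normal_1 and Normal_2. Cells with at least 2 epithelial markers had 5.76, 1.08, 15.4 and 9.13 CPM. The selected cells had 1, 0, 0 and 1 UMIs. The endothelial level was thus the highest of these groups in every library, and over all kept cells KITLG was at 26.0 and 23.9 CPM after injury and 49.96 and 36.1 CPM in normal mucosa. Cells with 2 endothelial markers numbered 1140 and 873 after injury and 1706 and 1669 in normal mucosa, and their part in that difference was not tested.

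Cytokine genes linked to allergic responses were sparse. The interleukin-4 gene (IL-4 in the files) had 16 UMIs in 7 selected cells, out of 86 UMIs in all kept cells. Of the 7 cells, 5 were in the set with MS4A2 and HDC and 2 in that with KIT, MS4A2 and HDC. The set with MS4A2 and HDC had 13 UMIs of IL-4, and 1 UMI without Injury_1. IL13 had 4 UMIs, each in a different cell of Injury_2 with KIT, MS4A2 and HDC, out of 8 in all kept cells. IL5 had no UMI in the selected cells. RPN1, which was among the leading genes, has 1 annotated gene between it and GATA2, a transcription factor of mast cells, in the RefSeq table of the rabbit genome, and GATA2 has no symbol in the files. Whether reads of one gene were counted to the other was not tested. In addition, 16 barcodes that met the marker rule failed the filters on cells.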
